A study of Homo sapiens with 6 samples.

Results

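The zinc finger genes numbered ZNF on chromosome 19 were followed in NCRM-1 aggregates. Members were the genes of the deposited count tables whose GENCODE 44 symbol was ZNF, a number and at most 1 further letter, and that lie on chromosome 19 (GRCh38). There were 247 members among 19977 genes. NCRM-1 is a human induced pluripotent stem cell line made from cord blood cells. It was grown as floating aggregates in vertical wheel bioreactors for 4 days, with 50% of the medium replaced on day 2. The 3 Control libraries came from cells kept in E8, a defined medium for pluripotent cells. The 3 PEG and HS libraries came from cells kept in E8 with 10 mg/ml polyethylene glycol and 0.1 µg/ml heparin sodium salt. All 6 were bulk libraries of polyadenylated RNA from the same line, with no genetic change between the media.

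Most human zinc finger genes of this kind encode a row of C2H2 fingers that reads DNA, and many carry a KRAB box at the front of the protein. The KRAB box binds TRIM28, a scaffold protein that brings SETDB1 and other silencing enzymes to the bound site, where histone H3 is methylated at lysine 9. Several of these proteins silence transposable elements in early embryos and pluripotent cells. The genes arose by tandem duplication, so they lie in clusters on chromosome 19 and many neighbours are alike in sequence.

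A profile built from KRAB boxes of zinc finger proteins found the box in 213 of the 247 members and not in 34. The label KRAB-type thus held for most members and not for all. The members without it included ZNF146, ZNF134 and ZNF296, and ZNF121, whose 9 fingers gave the clearest view of the repeat. Its first finger and the linker to the next, 84 coding bases in exon 4 of 4 at chr19:9566594-9566677 (minus strand, GENCODE 44 transcript), are shown because this unit, repeated, makes up most of the proteins. ZNF781 is annotated as a pseudogene and had no protein to read. Capitals mark the codons of the 2 cysteines and 2 histidines that hold the zinc ion.
ZNF121 finger 1: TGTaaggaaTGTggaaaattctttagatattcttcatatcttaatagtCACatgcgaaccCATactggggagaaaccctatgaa
The same spacing of 7 residues stood between all 8 neighbouring pairs of fingers in ZNF121. Across the tested members the number of fingers ran from 1 to 31, with a median of 12.

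ZNF587 and ZNF417 are shown because their sequences limit what can be said of the member with the smallest adjusted p. They lie near each other on opposite strands and encode proteins known to bind endogenous retroviruses. Their coding sequences are both 1725 bases long and 1709 of those bases are equal, an identity of 99.1%. The part of the KRAB box that lies in exon 2 has 115 bases, at chr19:57856119-57856233 (plus strand) in ZNF587 and chr19:57912060-57912174 (minus strand) in ZNF417. None of these 115 bases differed, so 1 sequence stands for both.
ZNF587 and ZNF417 KRAB stretch: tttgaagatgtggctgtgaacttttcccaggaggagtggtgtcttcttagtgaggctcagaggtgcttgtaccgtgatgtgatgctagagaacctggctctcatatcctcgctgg

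The libraries held 26991279 to 36185138 counts each and none stood apart from its medium. Pluripotency markers were abundant in both media. All 10 pluripotency markers, POU5F1 and NANOG among them, were tested, and their summed level was 9464 to 9663 normalised counts per 1000000 (CPM) in PEG and HS and 9809 to 9955 CPM in Control, with 4 called higher and 4 lower. Over all 16505 tested genes 12.2% were called higher and 13.1% lower, by the test described below. Markers of other cell types moved with the medium. The 6 neuroectoderm markers summed to 8.21 to 8.72 CPM in the PEG and HS libraries and 17.1 to 19.5 CPM in Control, and 5 of them fell. The 6 trophectoderm and amnion markers summed to 4.72 to 4.91 CPM and 13.5 to 14.0 CPM, and 3 of the 5 tested fell. The 6 fibroblast markers summed to 560 to 593 CPM and 480 to 511 CPM, with 1 called higher and 3 lower. In this list the sum rose although more genes were called lower than higher, so the sum does not stand for the list. In the mesoderm and primitive streak list 2 of 6 fell, at 5.47 to 5.66 CPM and 6.19 to 7.40 CPM, and in the endoderm list 0 of 4 tested genes were called. No marker was at 0 in all libraries, and 2, 4, 5 and 4 of the neuroectoderm, mesoderm, endoderm and trophectoderm markers were under 1 CPM on average. The part of these cells in the results was not tested, and in bulk RNA fewer cells of a type and less RNA per cell cannot be told apart. By the labels each medium had 1 bioreactor, so the effect of the medium and that of the vessel cannot be told apart, and p-values may measure only the spread between samples of a vessel.

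Most members were expressed at a modest level. Of the 236 members with at least 10 counts over the 6 libraries, which were tested, 6 averaged under 1 CPM, 85 lay from 1 to 10 CPM, 144 from 10 to 100 CPM and 1 above 100 CPM. The 1 above was ZNF146, made up of fingers alone. It was at 188.8, 178.8 and 193.1 CPM in the PEG and HS libraries and at 187.4, 176.2 and 185.3 CPM in Control, so the media overlapped. After it in CPM came ZNF649 (95.4), ZNF121, ZNF331, ZNF134 and ZNF738. Per kilobase of transcript the order changed. ZNF146 still led with 55.3 CPM per kb, followed by ZNF787 (31.5), ZNF358 (30.2), ZNF649 (29.9), ZNF581 (27.8) and ZNF580 (24.4), and of these 6 only ZNF649 has a KRAB box. ZNF787, ZNF358 and ZNF580 were named after their values were seen.

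The other 11 members were too low to test, and 9 of them formed an unbroken run. From ZNF208 to ZNF728, at chr19:21932958-23003176, no member had more than 7 counts over the 6 libraries. ZNF676, which is known to bind a family of retroviral repeats, had 2 counts in all, both in PEG and HS. ZNF728 had 0. The run stands inside a cluster whose other 28 members were tested, among them ZNF90, ZNF91 and ZNF93, each averaging over 45 CPM in Control. ZNF556 and ZNF541, the remaining untested members, had 2 and 5 counts. Differences in these 11 genes were not detectable at this depth.

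**Figure D1:**
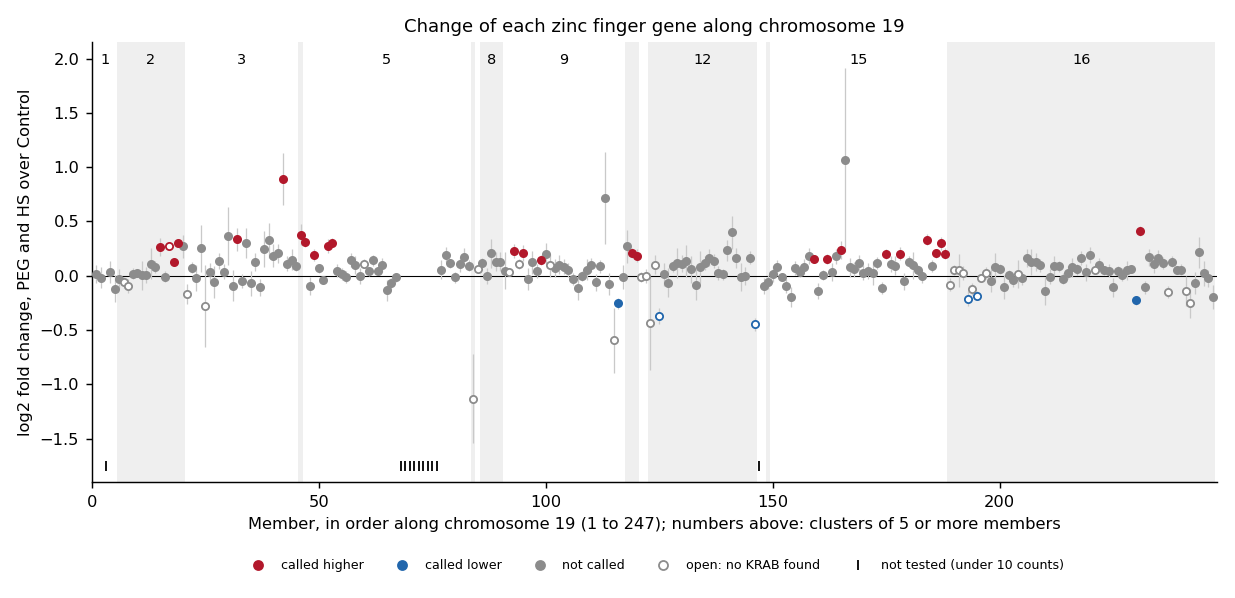
log2 fold change of each tested member (y axis, PEG and HS over Control, bars ± 1 standard error) in the order of the members along chromosome 19 (x axis), with clusters in alternating bands, calls in colour and members without KRAB as open circles. The 9 silent members between order 68 and 76 form the gap in cluster 5, most points lie slightly above 0, and ZNF536 at the bottom and ZNF534 at the top rest on few counts.

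The question of the comparison was whether the polymer and heparin changed gene expression in cells cultured for growth as aggregates. As a group the members sat slightly higher in PEG and HS. Of 236 tested, 26 were called higher and 6 lower by the quasi-likelihood test of edgeR, at an adjusted p under 0.05 (Benjamini-Hochberg, over all 16505 tested genes). That is 11.0% higher, against 12.2% of all tested genes, and 2.54% lower, against 13.1%. The share called higher was thus near the background and the share called lower was below it, and neither difference was tested. The median log2 fold change was 0.06 over members and 0.00 over all genes, and 164 of 236 members (69.5%) had a positive value, against 50.9% of all genes. In 55 members every PEG and HS library lay above every Control library in CPM (23.3%, background 19.5%) and in 10 every one lay below (4.24%, background 19.8%).

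The changes were small. Among the 26 called higher, log2 fold changes ran from 0.13 to 0.89, with a median of 0.23, and 210 of the 236 members changed by less than 1.2-fold in either direction. Leaving out a library altered the count of higher calls by over 1.5 times in these cases: 17 were called without PEG and HS replicate 1 and 16 without Control replicate 2, and the median was then 0.04 and 0.05. With DESeq2, 17 were higher and 5 lower. Over all tested genes the higher calls also went down, from 2016 to 1453 and 1474 without those libraries and 1614 with DESeq2. With offsets for GC content and length, 19 were higher and 8 lower and the median was 0.03, so that the higher share of calls went from 81.2% to 70.4%. Over all genes 2242 were higher and 2402 lower with these offsets, and the higher share of calls was 48.3% with and without them.

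Summed over all 247 members, the level was 5061, 4931 and 4945 CPM in the PEG and HS libraries and 4802, 4670 and 4767 CPM in Control. The means were 4979 ± 71.3 and 4746 ± 68.4 CPM (SD, n = 3), a log2 ratio of 0.07. The lowest PEG and HS library lay above the highest Control library. With 3 against 3 samples an exact permutation test cannot give a two-sided p below 0.1, so none is given.

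The members with and without a KRAB box differed in these values. Of 204 tested members with the box, 25 were called higher (12.3%) and 2 lower (0.98%), and the median log2 fold change was 0.08. Of 32 tested without it, 1 was called higher and 4 lower (12.5%), and the median was −0.04. The summed level of the KRAB members was 3992, 3873 and 3891 CPM in the PEG and HS libraries and 3743, 3625 and 3726 CPM in Control, with no overlap. For the members without KRAB it was 1069, 1058 and 1054 CPM against 1059, 1045 and 1041 CPM, which overlapped. The difference between the classes was not tested.

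**Figure D2:**
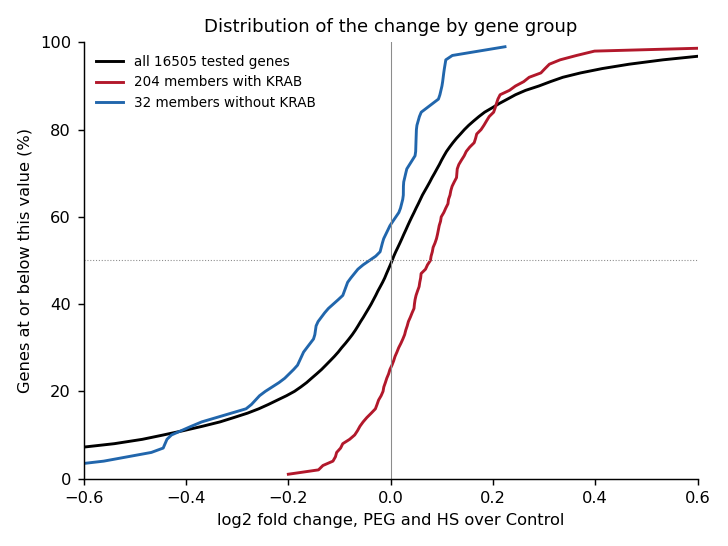
Cumulative share of genes (y axis, percent) at or below each log2 fold change (x axis, PEG and HS over Control) for all tested genes, members with KRAB and members without. The KRAB curve crosses 50% at 0.08, the curve of all genes at 0.00 and the curve of members without KRAB at −0.04, and the KRAB curve is steeper on the lower side.

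KRAB zinc finger genes elsewhere in the genome had a similar median. Of 119 tested on other chromosomes with the same symbol pattern and a KRAB box, 29 were called higher (24.4%) and 3 lower (2.52%), with a median of 0.08. The 127 without the box split into 16 higher and 18 lower, with a median of 0.01. Of 989 tested genes of other kinds on chromosome 19, 77 were higher (7.79%) and 156 lower (15.8%), with a median of −0.04. With offsets for GC content and length they split into 131 higher and 137 lower, with a median of 0.00.

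GC content moved with these values. The median GC content of the canonical transcript was 42.1% for members with KRAB, 62.1% for members without, 60.8% for the other genes of chromosome 19 and 49.4% for all tested genes. Across the 236 members, log2 fold change and GC content had a Pearson r of −0.35 and a Spearman rho of −0.27, a description over genes that share the same 6 libraries. Across 16473 tested genes rho was −0.14. At a limit of 55% GC, set after the values were seen, the 26 tested members at or above it held 0 higher and 4 lower calls with a median of −0.07, and the 210 below it held 26 higher and 2 lower calls with a median of 0.08. Of 3900 genes outside the ZNF series with GC content below the members' median, 625 were higher and 343 lower, with a median of 0.04, and with offsets for GC content and length 408 were higher and 617 lower, with a median of −0.01. Of 3521 such genes with GC content between the members' quartiles, 534 were higher and 394 lower, with a median of 0.02. With offsets for GC content and length the median of the KRAB members went to 0.04 and that of the members without KRAB to 0.01. The calls were then 18 higher and 4 lower with KRAB, and 1 higher and 4 lower without. KRAB genes of the same symbol pattern on other chromosomes split into 26 higher and 4 lower with these offsets, with a median of 0.06. The number of fingers (rho 0.18, n = 235) and transcript length (rho 0.20) went weakly the other way, and mean level did not follow the change (rho 0.04).

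**Figure D3:**
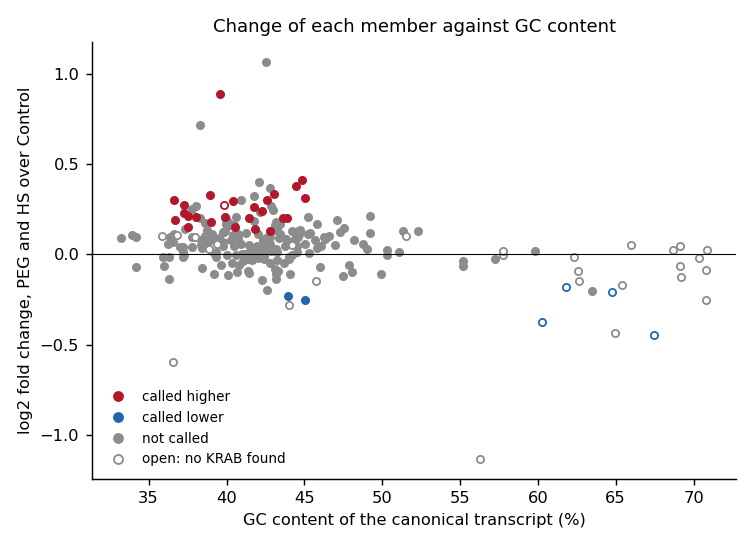
log2 fold change (y axis, PEG and HS over Control) against GC content of the canonical transcript (x axis, percent) for each tested member, coloured by call, with members without KRAB as open circles. All 26 higher calls lie below 55% GC, and 4 of the 6 lower calls lie above 60%.

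The member with the smallest adjusted p was ZNF587 (ENSG00000198466), at chr19:57849859-57865117 on the plus strand. It was at 55.4, 58.0 and 55.2 CPM in the PEG and HS libraries and at 46.0, 39.8 and 41.1 CPM in Control. It rose by 0.41 on the log2 scale (SE 0.05, adjusted p = 1.4e-05) and the media did not overlap. ZNF417, which shares the KRAB stretch printed above, had 22.1, 20.2 and 23.1 CPM against 23.8, 22.5 and 24.2 CPM, a log2 fold change of −0.11 (SE 0.06, adjusted p = 0.20). The sum of both genes was 78.0 ± 0.44 CPM in the PEG and HS libraries and 65.8 ± 3.74 CPM in Control (SD, n = 3), a log2 ratio of 0.24 with no overlap. How reads that fit both genes were counted is not given in the sources used here, so the split between them is uncertain. ZNF587 also lies inside ZNF814 (chr19:57848731-57889074) on the other strand. ZNF814 was at 49.7, 46.2 and 46.7 CPM in the PEG and HS libraries and at 56.0, 54.5 and 56.5 CPM in Control, and it fell by 0.23 (SE 0.04, adjusted p = 5.1e-04). It is itself overlapped on its strand by the locus ENSG00000269476. The libraries were stranded, but the use of strand in counting is not given.

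ZNF562 and ZNF121 rose at neighbouring sites. ZNF562 (ENSG00000171466, chr19:9641807-9675100, minus strand) was at 54.9, 53.8 and 52.3 CPM in the PEG and HS libraries and at 43.3, 43.0 and 44.3 CPM in Control, a log2 fold change of 0.30 (SE 0.04, adjusted p = 2.4e-05). ZNF121 (ENSG00000197961, chr19:9560329-9584504, minus strand) was at 103, 106 and 102 CPM against 87.2, 82.3 and 87.2 CPM, a log2 fold change of 0.28 (SE 0.03, adjusted p = 2.1e-05). In both genes the 3 libraries of PEG and HS lay above the 3 of Control. ZNF561, which lies between them, was at 54.98, 53.4 and 52.9 CPM against 50.8, 48.5 and 48.3 CPM and rose by 0.13 (SE 0.04, adjusted p = 0.019), and ZNF560 nearby rose by 0.26 (SE 0.09, adjusted p = 0.035). The calls of ZNF561 and ZNF560 were lost in 4 and 7 of the 17 alternative fits. Both were lost with DESeq2, ZNF561 also without PEG and HS replicate 1 or Control replicate 2 or 3, and ZNF560 also with GC content and length offsets and without any 1 of 4 of the libraries. These genes were named for their place beside ZNF121 and ZNF562 after their values were seen.

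The promoters of ZNF121 and ZNF562 are shown because both genes were called higher and the windows share runs of bases, 53 of the 250 bases in each. They are the 250 bases before the gene start (RefSeq, GRCh38.p14, minus strand), at chr19:9584505-9584754 for ZNF121 and chr19:9675101-9675350 for ZNF562. Capitals mark runs of at least 20 bases that both windows hold.
ZNF121 promoter: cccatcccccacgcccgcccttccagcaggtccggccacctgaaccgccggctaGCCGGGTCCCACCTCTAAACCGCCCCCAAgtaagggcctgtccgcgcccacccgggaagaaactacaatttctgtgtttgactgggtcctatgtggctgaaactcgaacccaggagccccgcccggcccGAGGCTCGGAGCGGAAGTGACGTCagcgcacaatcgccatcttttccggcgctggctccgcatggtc
ZNF562 promoter: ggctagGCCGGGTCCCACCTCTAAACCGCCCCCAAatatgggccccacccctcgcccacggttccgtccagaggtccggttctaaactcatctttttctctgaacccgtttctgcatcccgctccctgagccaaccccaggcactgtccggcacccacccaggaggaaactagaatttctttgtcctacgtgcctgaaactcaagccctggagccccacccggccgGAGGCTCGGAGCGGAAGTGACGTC
The runs were 29 and 24 bases long, and among 35116 promoters in the table each of them was found on either strand in these 2 alone. The run of 24 bases reaches the last base of the ZNF562 window, so its length is limited by the window. ZNF561 shared runs of at most 22 bases with ZNF121 and 21 with ZNF562. The GC box GGGCGG, searched on both strands of the 250 bases, stood in 140 of the 216 members that had a promoter in the table (64.8%) and in 42.6% of all promoters. It stood in 16 of 24 members called higher, 3 of 6 called lower and 121 of 186 not called (65.1%), so the share was alike in members called higher and not called. Such a match is a description of letters and not of binding.

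ZNF101 and ZNF90 rose in the cluster that also holds the silent run. ZNF101 was at 41.2, 38.5 and 42.0 CPM in the PEG and HS libraries and at 32.7, 32.7 and 32.8 CPM in Control, a log2 fold change of 0.31 (SE 0.04, adjusted p = 8.8e-05). ZNF90 was at 76.8, 75.03 and 71.3 CPM against 63.4, 60.4 and 57.2 CPM, a log2 fold change of 0.30 (SE 0.04, adjusted p = 6.3e-05). Neither overlapped between the media, a condition of the rule that named them and also ZNF525, ZNF562 and ZNF587. ZNF525, which overlaps ZNF765 on its own strand, was at 41.2, 37.8 and 39.9 CPM against 33.2, 30.2 and 31.3 CPM and rose by 0.33 (SE 0.05, adjusted p = 1.2e-04), also with no overlap. ZNF101, ZNF90, ZNF525, ZNF562, ZNF121 and ZNF587 stayed called in all 17 alternative fits. Those 17 did not include the test against a 1.2-fold change. In that test 1 of 236 members and 215 of all 16505 genes were called higher.

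The remaining named members on the higher side rested on less. ZNF333, overlapped by a gene on the other strand, was at 9.64, 9.20 and 7.68 CPM in the PEG and HS libraries and at 7.30, 6.65 and 6.48 CPM in Control, a log2 fold change of 0.38 (SE 0.10, adjusted p = 0.0085), and lost its call without PEG and HS replicate 1. ZNF878, which lies in the longer locus ENSG00000257355 of its strand, was at 6.46, 5.24 and 5.82 CPM against 4.71, 4.77 and 4.46 CPM, a log2 fold change of 0.34 (SE 0.10, adjusted p = 0.029), and lost its call with DESeq2 and without any 1 of 5 of the libraries. ZNF709 was at 3.23, 3.89 and 3.49 CPM against 3.04, 1.51 and 1.30 CPM, a log2 fold change of 0.89 (SE 0.24, adjusted p = 0.012). Of its 31-base words 78.8% also occur in other genes, chiefly in the overlapping locus ENSG00000196826, which was listed at 0 in each PEG and HS library and at 0.919 ± 0.805 CPM in Control (SD, n = 3). The sum of that locus and ZNF709 had a log2 ratio of 0.30, and the call of ZNF709 was lost without Control replicate 2 or 3.

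Of the 6 members called lower, 4 had no KRAB box. ZNF296 (ENSG00000170684, chr19:45071500-45076478, minus strand), a zinc finger gene known for its expression in pluripotent cells, was at 11.5, 11.5 and 11.8 CPM in the PEG and HS libraries and at 16.3, 15.3 and 15.9 CPM in Control. It fell by 0.45 on the log2 scale (SE 0.06, adjusted p = 5.2e-05), and the media stood far apart relative to their spread. ZNF428, with 1 finger, was at 17.8, 17.5 and 16.7 CPM against 20.9, 25.1 and 21.1 CPM and fell by 0.37 (SE 0.07, adjusted p = 0.0011). ZNF784 was at 12.3, 11.3 and 11.0 CPM against 13.1, 14.1 and 12.8 CPM and fell by 0.21 (SE 0.07, adjusted p = 0.037), a call that was lost with DESeq2, with GC content and length offsets and without any 1 of 4 of the libraries. ZNF581 was at 31.6, 31.5 and 30.4 CPM against 34.5, 36.8 and 34.7 CPM and fell by 0.18 (SE 0.04, adjusted p = 0.0073), and it overlaps ZNF580 and CCDC106 on its strand.
Besides ZNF814, the KRAB gene ZNF607, overlapped on its strand by the locus ENSG00000267552, fell from 36.6, 35.0 and 36.2 CPM in Control to 29.2, 29.2 and 31.9 CPM in PEG and HS, by 0.25 on the log2 scale (SE 0.05, adjusted p = 0.0010). All 6 lower members were free of overlap between the media.

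**Figure D4:**
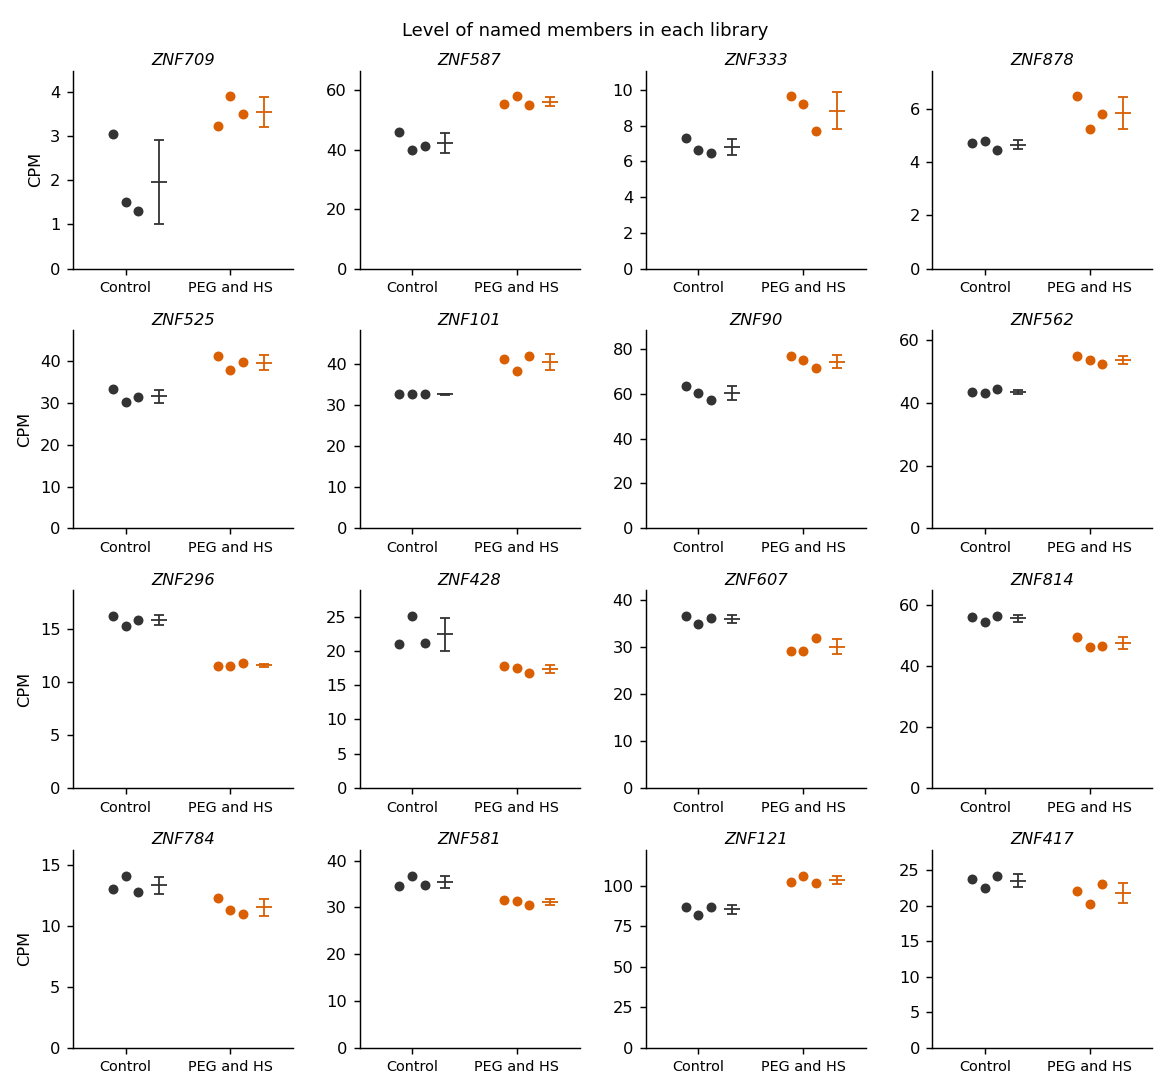
CPM (y axis, from 0) of 16 members in each library, with dots for the 3 Control and 3 PEG and HS libraries and a bar for the mean ± SD. The first 8 panels are called higher and the next 6 called lower, and ZNF121 (higher) and ZNF417 (not called, overlapping) close the set.

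Of the named members known to bind transposable elements, ZNF587 was called and the others were not. ZNF93, which binds L1 elements, was at 55.3, 54.5 and 53.8 CPM in the PEG and HS libraries and at 55.9, 56.8 and 55.1 CPM in Control, a log2 fold change of −0.04 (SE 0.03, adjusted p = 0.50). ZNF91, which binds SVA elements and has 31 fingers, was at 52.2, 47.6 and 50.4 CPM against 46.7, 44.9 and 47.4 CPM, a log2 fold change of 0.11 (SE 0.04, adjusted p = 0.064). Its media did not overlap, but it missed the threshold. ZNF649 stayed between 93.3 and 97.1 CPM in all 6 libraries, a log2 fold change of −0.01 (SE 0.03, adjusted p = 0.89). ZNF611, ZNF808 and ZNF433 had log2 fold changes of 0.05, 0.06 and −0.09 with SEs of 0.07, 0.07 and 0.15, and none was called. ZNF534, like ZNF676 above, was close to silent. It had 19 counts in all and a log2 fold change of 1.07 with an SE of 0.84, so a difference was not detectable at this depth. ZNF536, named after its values were seen, had the lowest log2 fold change of any member, −1.13 (SE 0.41, adjusted p = 0.057), on 94 counts. ZNF331, an imprinted gene, was at 87.5, 91.4 and 80.6 CPM against 81.4, 71.3 and 72.8 CPM and rose by 0.20 (SE 0.05, adjusted p = 0.0081), although the media overlapped. ZNF134 and ZNF738, named for their level, had log2 fold changes of 0.05 (SE 0.03, adjusted p = 0.29) and 0.04 (SE 0.04, adjusted p = 0.43).

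Along the chromosome the members fell into 16 clusters, cut where the starts of neighbouring members lay over 1 Mb apart. The 8 clusters with at least 5 tested members held 222 of the 236 tested, and each of the 8 had a median above 0. The smaller clusters went both ways, from −1.13 in cluster 6 (ZNF536 alone) to 0.38 in cluster 4 (ZNF333 alone). Counts per cluster are read against the 12.2% of all tested genes called higher and the 13.1% called lower. Cluster 15, at chr19:51571283-53580269 from ZNF175 to ZNF331, held 39 members, all with a KRAB box. It had 9 higher calls (23.1%), 0 lower and a median of 0.08, and its summed level was 1036, 1008 and 1008 CPM in the PEG and HS libraries and 955, 918 and 955 CPM in Control. The neighbours at its end, ZNF761, ZNF813 and ZNF331, were all called higher. Cluster 2, at chr19:7069703-9793180, held 15 members with 4 higher calls (26.7%) and 0 lower. Those were ZNF560, ZNF121, ZNF561 and ZNF562. Its summed level was 459, 462 and 465 CPM against 435, 424 and 425 CPM, again with no overlap.
Cluster 16, at chr19:55476617-58481230, held the most members, 59, but had 1 higher call (1.69%), ZNF587, and 3 lower, with a median of 0.05 and summed levels of 1297, 1282 and 1269 CPM against 1272, 1245 and 1252 CPM, which overlapped. Cluster 12, at chr19:43525497-45076478, had 0 higher and 2 lower calls among 24 members, both without KRAB. The 24 tested genes of other kinds inside it held 7 lower calls and 0 higher, with a median of −0.16, beside 0.08 for its members. Such genes inside cluster 15 (8 tested, 0 called either way) had a median of 0.13, above that of its members. In clusters 2, 3, 9 and 16 their medians were 0.01, −0.01, 0.05 and −0.09, from 43, 11, 3 and 29 tested genes. The members of those clusters had medians of 0.03, 0.11, 0.06 and 0.05. Cluster 5 held 1 such tested gene and cluster 8 held 0. In cluster 5, at chr19:19668796-24129968, 4 of 28 tested members were higher (14.3%), near the share of all genes, and 0 lower.
In 5 of the 8 clusters, numbers 2, 3, 5, 8 and 15, the summed level did not overlap between the media. In 6 pairs of direct neighbours both members were called higher, as at ZNF682 and ZNF90 and at ZNF780B and ZNF780A. Each pair within a longer run, such as ZNF121, ZNF561 and ZNF562, was counted. Differences between clusters were not tested.

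**Figure D5:**
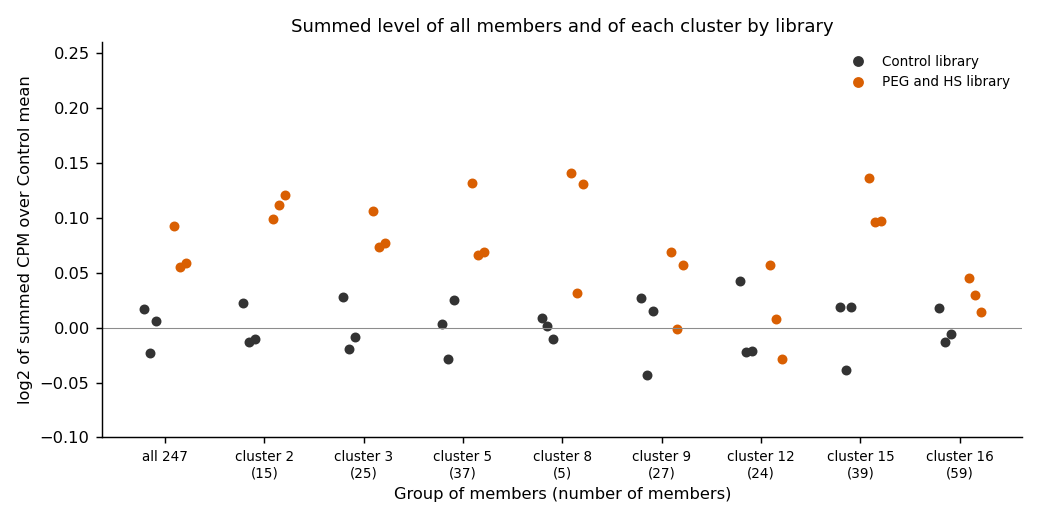
log2 of the summed CPM of all members and of each of the 8 larger clusters in each library, relative to the Control mean (y axis), by group of members (x axis). Clusters 2, 3, 5, 8 and 15 show the 3 PEG and HS libraries above the 3 Control libraries, and clusters 9, 12 and 16 overlap.

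The partners of the KRAB box were taken from a list of 32 co-repressor genes. Of these, 6 were called higher and 2 lower (25.3% of all tested genes were called in either direction), with a median of 0.02. TRIM28, which the box binds, was at 1039 ± 28.0 CPM in the PEG and HS libraries and 1010 ± 15.7 CPM in Control (SD, n = 3), a log2 fold change of 0.04 (SE 0.03, adjusted p = 0.29). SETDB1, the histone methyltransferase it recruits, was at 61.1 ± 0.075 and 63.0 ± 1.05 CPM, a log2 fold change of −0.04 (SE 0.03, adjusted p = 0.37). TRIM24, a relative of TRIM28, had the largest change, from 338 ± 8.24 CPM in Control to 234 ± 4.32 CPM in PEG and HS, and fell by 0.54 (SE 0.03, adjusted p = 1.6e-09). ATF7IP2, a relative of the SETDB1 partner ATF7IP, rose by 0.34 (SE 0.07, adjusted p = 0.0016), and CHD3, a remodelling enzyme of the NuRD complex, rose by 0.20 (SE 0.03, adjusted p = 2.5e-04). Without Control replicate 1 the list had 5 calls in place of 8, and over all genes 1575 were higher and 1878 lower.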

How the data were processed

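The authors isolated RNA from the aggregates, made stranded libraries of polyadenylated RNA, trimmed reads with Trim Galore 0.6.7, mapped them to GRCh38 with STAR 2.6.1 in nf-core/rnaseq 3.6 and deposited raw counts per gene, 1 library per file. The tool that counted the reads and its use of strand are not given in the sources used here. Of 19977 rows, 19916 matched GENCODE 44. The treatment given for each library in the labels set its group, although the treatment text describes PEG and heparin for all 6.

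Genes with at least 10 counts over the 6 libraries (16505) were compared with edgeR 4.0.16 (TMM, glmQLFTest, no covariate) in R 4.3.3, with Benjamini-Hochberg adjustment and a call at 0.05. CPM use TMM library sizes. The standard error is that of the log2 fold change. KRAB boxes were sought with a profile from 245 zinc finger proteins (pyhmmer 0.12.3, E value 0.001). Shared sequence is the share of a gene's 31-base words found in other genes. Alternatives used DESeq2 1.42.0, limma-voom 3.58.1, other normalizations, filters, thresholds, offsets for GC content and length, a replicate block and each library left out in turn. In a further fit, a gene with at least 50% of its words in another gene was summed with that gene. The scripts were tested on simulated data. Named members were the 8 largest changes each way among calls with no overlap and at least 1 CPM, the 6 highest in CPM, 12 known binders of transposable elements or genes tied to imprinting or pluripotency, and the 3 largest calls without KRAB. Members and lists were chosen with earlier results of these data known.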

Additional observations from a re-analysis of the deposited data

How the results depend on the processing

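Depth left 11 of 247 members untested, and the common biological coefficient of variation of 3.12% made changes under 1.2-fold callable, so that tested against 1.2-fold only 1 member was called higher and 1 lower. Over all 16505 tested genes 215 were higher and 653 lower in that test. At an adjusted p under 0.01, 14 members were higher. DESeq2 called 17 members higher, and 1614 of all 16505 genes. Members called higher numbered 16 to 27 when a library was left out in turn, and the co-repressor calls 5 to 8. Over all tested genes the higher calls then ran from 1453 to 1751, against 2016 with all libraries. The lower calls were 2 among 204 tested members with a KRAB box, against 4 among 32 without it. They were 3 among the 174 tested members not overlapped on their strand. With GC content and length offsets the median was 0.032 and the log2 ratio of the summed level 0.0426, and with the replicate block added the median was 0.0315. The cause was not tested. Of the 32 called members, 18 were called in all 17 alternative fits (13 higher and 5 lower), 14 lost the call in at least 1, and 0 changed sign. Not among these 17 were the test against 1.2-fold, the limit of 0.01 and the fit on summed genes given below. The replicate block alone gave 31 members higher and 7 lower, and 2187 higher and 2257 lower over all genes. The fit on summed genes that share sequence gave 35 members higher and 8 lower of 233 tested. Over all 15911 genes of that fit 2178 were higher and 2403 lower. Deviations of libraries with the same number correlated at 0.07, 0.14 and 0.07, below 0.1 in 2 cases, so the numbers were not taken as pairing samples, although each library correlated best with its own number. ZNF91 was called with the replicate block (adjusted p = 0.039), by library size alone (0.049) and without PEG and HS replicate 2 (0.028), and its adjusted p reached at most 0.41. A limit of at least 1 CPM on the members, chosen after seeing the data, left 26 higher and 6 lower.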
